A study of Homo sapiens with 6 samples.

Results

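The nuclear genome encodes most subunits of the mitochondrial respiratory chain, and these genes were compared between wild-type (WT) and S6K1-/- H7 cells, a human embryonic stem cell (hESC) line. They were chosen by gene symbol, which took the subunits of complexes I to IV, cytochrome c and the ATP synthase (complex V), and 78 of the 61155 symbols in the count table matched. Complex I had 37 of them, complex II 4, complex III 9, complex IV 12 and complex V 15, with CYCS, the gene of somatic cytochrome c, beside them. NDUFA4 was placed in complex IV, where its product is found. The poly(A) RNA of 3 WT libraries (WT1 to WT3) and 3 S6K1-/- libraries (KO1 to KO3) was sequenced. By the methods, all 6 came from undifferentiated cells grown without feeders on Matrigel in TeSR-E8, and the S6K1-/- libraries from clone #1, made with Cas9 and guides to exons of RPS6KB1 and grown from sorted cells. The labels in GEO instead name a knockdown and week 5 for these samples. With 1 clone, the genotype and the clone cannot be told apart, and whether the libraries of a group came from separate cultures is not stated, so the spread between them may be technical.

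Complex I takes electrons from NADH and complex II from succinate. Both pass them through ubiquinone to complex III, and cytochrome c carries them on to complex IV, where oxygen is reduced. The proton gradient built on the way drives the ATP synthase. The core subunits that mitochondrial DNA encodes are joined by partners made in the cytosol, so that every complex except complex II draws on both genomes. Pluripotent stem cells are known to rely strongly on glycolysis while keeping an assembled respiratory chain.

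The promoters of respiratory chain genes are known for binding sites of NRF1 and of ETS family factors, to which GABPA belongs. They are shown here because they are the feature of the genes that the choice by symbol did not use. The 250 bases before each start were searched on both strands for the NRF1 core GCGCATGC, whose reverse GCATGCGC overlaps it by design, for the ETS core CCGGAAGT and for the YY1 core AAGATGGC. RefSeq (GRCh38.p14) gave 77 starts for 64 of the 78 genes. The NRF1 core stood before 15 of these 77 starts (19.5%) and before 2.63% of all 35116 starts, and the ETS core before 11 of them (14.3%) and 3.42% of all starts. The YY1 core stood before 2 of them (2.6%), both starts of ATP5PF, and before 1.36% of all starts. The 3 windows below hold the NRF1 core and touch no annotated exon. Their matches are in capitals, at 136 bases before the start in COX5B, 169 in CYCS and 200 in SDHB, and COX5B also holds the ETS core, 37 bases before the start. They lie on chromosome 2 from 97645812 to 97646061 (plus strand), on chromosome 7 from 25125261 to 25125510 (minus strand) and on chromosome 1 from 17054033 to 17054282 (minus strand), and each is written in the direction of its gene.
COX5B: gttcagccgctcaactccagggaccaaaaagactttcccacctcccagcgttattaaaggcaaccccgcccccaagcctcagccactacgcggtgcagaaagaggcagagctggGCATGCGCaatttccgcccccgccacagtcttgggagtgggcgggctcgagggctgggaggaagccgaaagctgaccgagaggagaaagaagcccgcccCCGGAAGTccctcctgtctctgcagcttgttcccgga
CYCS: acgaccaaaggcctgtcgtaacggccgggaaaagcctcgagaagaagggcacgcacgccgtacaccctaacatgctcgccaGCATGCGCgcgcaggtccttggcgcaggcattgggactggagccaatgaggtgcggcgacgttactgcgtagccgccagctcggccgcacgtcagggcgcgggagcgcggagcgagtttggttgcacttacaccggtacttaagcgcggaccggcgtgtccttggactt
SDHB: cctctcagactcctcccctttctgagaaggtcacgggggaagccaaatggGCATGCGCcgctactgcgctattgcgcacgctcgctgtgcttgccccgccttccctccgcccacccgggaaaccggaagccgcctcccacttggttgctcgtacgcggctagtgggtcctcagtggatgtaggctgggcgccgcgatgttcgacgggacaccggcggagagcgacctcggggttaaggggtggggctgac
The median log2 fold change between the genotypes was -0.0028 over the 13 tested genes with the NRF1 core and 0.0073 over the 11 with the ETS core, beside -0.006 over the genes that lack the NRF1 core and over those that lack the ETS core. The genes with the ETS core went both ways, from -0.40 in NDUFA13 to 0.22 in COX8A.

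Library totals ranged from 21896698 to 24473013 counts. The targeted gene RPS6KB1, which encodes S6K1, was at 34.1, 32.2 and 33.5 CPM in WT and at 19.8, 19.4 and 20.1 CPM in S6K1-/- libraries. CPM are counts scaled to a common library size. Its log2 fold change was -0.75 ± 0.057 (SE; adjusted p = 2.52e-07, edgeR's quasi-likelihood F test with Benjamini-Hochberg adjustment over all genes tested), so that the gene was lower in every S6K1-/- library. Reads inside the targeted exons cannot be told from others in counts per gene. All 11 pluripotent cell markers were detected. DNMT3B passed the study's threshold of an adjusted p of 0.001 as lower and PRDM14 as higher, beside 3.96% of all genes tested in either direction. Groups were apart in CPM for 7 of the 11 (63.6%, against 30.7% of all genes tested), 5 lower and 2 higher. TDGF1 (log2 fold change -0.15, adjusted p = 0.0308) and ZFP42 (0.17, adjusted p = 0.00874) missed the threshold in edgeR.

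The question of the comparison was whether the loss of S6K1 changed the expression of the respiratory chain genes. None of the 76 genes with enough counts for the test passed the study's threshold of an adjusted p of 0.001, in either direction, whereas 3.96% of all 19521 genes tested did. DESeq2's Wald test also called 0 of them. At an adjusted p under 0.05 there was 1, ATP5MF (13.8% of all genes). At an unadjusted p under 0.05 there were 10 with edgeR, 4 of them lower and 6 higher, and 6 with DESeq2, and edgeR's share over all genes was 26.4%. That count depended on single libraries, with 2 without WT3, 5 without KO2 and 14 without WT2. At an adjusted p under 0.05 it was 0 without WT1, WT3 or KO2, and up to 3 with another library left out, where ATP5ME and NDUFB7 (without WT2), UQCRH (without KO1) and NDUFB4 and COX7A2 (without KO3) joined ATP5MF. The groups did not overlap in CPM for 4 of the 76 genes, ATP5MF and NDUFA9 being higher and SDHC and COX5A lower in the S6K1-/- libraries, against 30.7% of all genes tested.

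The differences were small as well as not called. Of the 76 genes, 38 had a log2 fold change below 0 and 38 above it, and their median was -0.0006, beside -0.0024 over all genes tested. The median size in either direction was 0.053, against 0.111 over all genes tested and 0.071 over the 10508 of them with a mean of at least 10 CPM. In 62 of 76 genes (81.6%) the whole 95% confidence interval lay within ±0.25 on the log2 scale, a fold of 1.19, against 70.8% of the genes with at least 10 CPM. These intervals cover the spread between the libraries at hand.

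**Figure D1:**
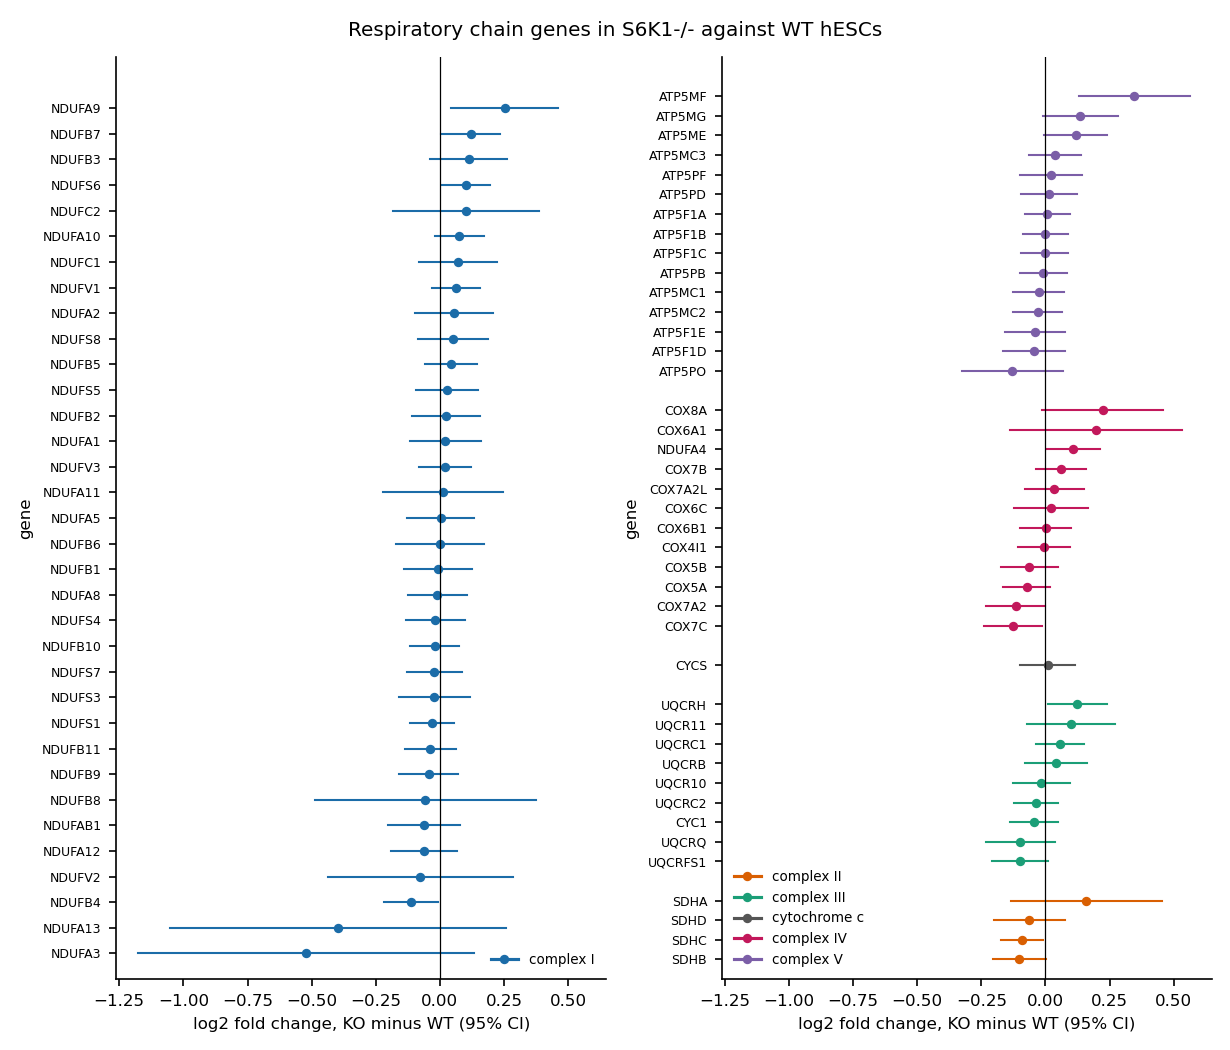
Log2 fold change of the tested respiratory chain genes that are reported by name (x axis, S6K1-/- minus WT) with its 95% confidence interval from edgeR, complex I on the left and the other complexes on the right. The points gather around 0 in every complex, and the wide intervals of NDUFA3, NDUFA13 and NDUFB8 belong to genes with few counts.

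**Figure D2:**
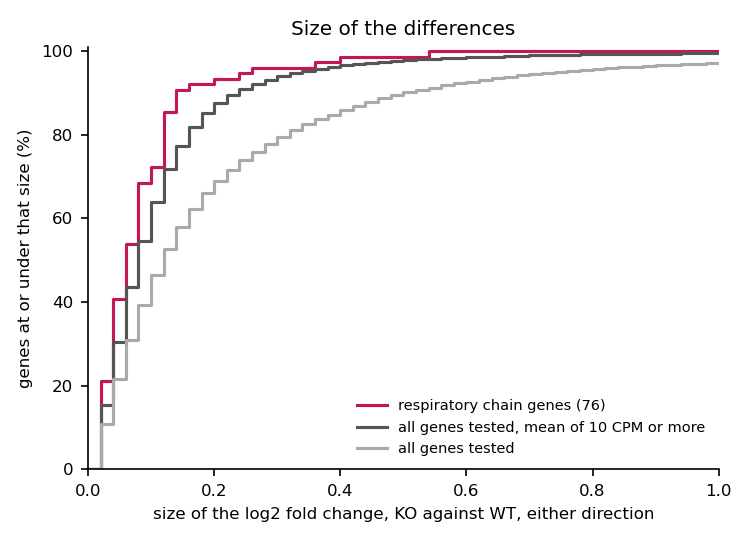
Share of genes (y axis, percent) whose log2 fold change is at or under a given size in either direction (x axis), for the 76 respiratory chain genes, all genes tested, and those with a mean of at least 10 CPM. At a size of 0.1 the shares are 72.4%, 46.5% and 64.0%.

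Summed over all 78 genes, the respiratory chain transcripts took 7275, 7750 and 7381 CPM in WT1 to WT3, and 7235, 7419 and 7776 CPM in KO1 to KO3. The groups covered the same range, and the ratio of their means was 1.00. By complex, the ratio of the summed CPM was 1.00 for complex I, 0.945 for complex II, 1.01 for complex III, 0.992 for complex IV and 1.01 for complex V. Of the 5 complexes, only complex II had sums that did not overlap, from 203.3 to 210.8 CPM in WT and from 191 to 202.1 CPM in S6K1-/- libraries. SDHC supplied the largest part of that sum.

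Complex I, the NADH dehydrogenase, had 35 tested genes, 17 below and 18 above 0, with a median log2 fold change of 0.0001. Per length of the canonical transcript (RPKM, the CPM divided by the length in kilobases), its highest gene was NDUFS5, a supernumerary subunit, at 338 RPKM. NDUFS5 had 158, 173 and 166 CPM in WT and 156, 164 and 186 CPM in S6K1-/- libraries, and the groups overlapped. NDUFV1, a core subunit which binds NADH and FMN, had a log2 fold change of 0.06 (95% interval -0.03 to 0.16).

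The complex I gene with the smallest adjusted p was NDUFA9, a subunit that helps join the 2 arms of the complex. It had 6.12, 6.02 and 6.11 CPM in WT and 6.90, 6.93 and 7.95 CPM in S6K1-/- libraries. The lowest S6K1-/- library stood above the highest WT library, with a log2 fold change of 0.25 ± 0.097 (SE) and an adjusted p of 0.105 in edgeR, short of the threshold. NDUFS6, NDUFB7 and NDUFB4 had unadjusted p under 0.05 with log2 fold changes of 0.10, 0.12 and -0.11, and their groups overlapped. For NDUFA10 and NDUFB3 the log2 fold change was 0.08 and 0.11, with intervals that included 0.

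Complex II, the succinate dehydrogenase that also serves the citrate cycle, had 3 of 4 genes below 0, with a median of -0.08. SDHC, 1 of its membrane anchors, had 103.8, 103.6 and 107.1 CPM in WT and 100.6, 96.9 and 97.7 CPM in S6K1-/- libraries. Every S6K1-/- library was below every WT library, by a log2 fold change of -0.09 ± 0.039 (SE) that was not called (adjusted p = 0.146, edgeR). SDHB, the iron-sulphur subunit, had a log2 fold change of -0.10 (95% interval -0.20 to 0.00), and SDHD, the other anchor, -0.06. SDHA, the flavoprotein, had the opposite sign at 0.16 (-0.13 to 0.45) and rested on 91 to 144 counts a library.

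Complex III, which passes electrons to cytochrome c, had 5 of 9 genes below 0 and a median of -0.02. Its highest gene per length was UQCRH, the hinge protein, at 393 RPKM. UQCRH had 201.3, 212 and 192 CPM in WT and 201.7, 236 and 221.9 CPM in S6K1-/- libraries, with a log2 fold change of 0.12 (95% interval 0.01 to 0.24, adjusted p = 0.159 in edgeR). KO1 lay inside the WT range. UQCRFS1, the Rieske iron-sulphur protein, and UQCRQ were at -0.10 each, and UQCR11 at 0.10, with intervals that included 0. CYCS had 251, 278 and 278 CPM in WT and 266, 258 and 288 CPM in S6K1-/- libraries. Its log2 fold change of 0.01 (-0.10 to 0.12) was well inside the spread between libraries.

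Complex IV, the cytochrome c oxidase, had 5 of 12 genes below 0 and a median of 0.01. COX7C, a small supernumerary subunit, was its highest gene per length at 397 RPKM. It had 243, 277 and 262 CPM in WT and 236, 225 and 254 CPM in S6K1-/- libraries, a log2 fold change of -0.13 (95% interval -0.24 to -0.01, adjusted p = 0.142 in edgeR), with KO3 inside the WT range. COX7A2 (-0.12) and NDUFA4 (0.11) had differences of like size in opposite directions, and COX7B was at 0.06. COX5A, which the groups separated, had 124.1, 135.9 and 125.5 CPM in WT and 122.4, 120.0 and 123.9 CPM in S6K1-/- libraries. The gap between KO3 and WT1 was smaller than the range within either group, and the adjusted p was 0.308 in edgeR.

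Complex V, the ATP synthase, had 8 of 15 genes below 0, a median of -0.0012 and a median size of 0.031. ATP5F1B, the catalytic beta subunit, was the highest of all 78 genes per length, at 459 RPKM. It had 791, 823 and 810.0 CPM in WT and 795, 790.3 and 836 CPM in S6K1-/- libraries. Its log2 fold change of -0.0012 had a 95% interval of -0.09 to 0.09. ATP5ME and ATP5MG, small membrane subunits, were at 0.12 and 0.14, with adjusted p of 0.206 and 0.224 in edgeR. ATP5F1E, the epsilon subunit, was at -0.04. With a canonical transcript of 3610 nucleotides it was the lowest of the complex per length, at 11.4 RPKM. In CPM it was not the lowest, with a mean of 41.2 against 12.9 for ATP5PO. The rule did not take 2 further subunits that the table lists under older symbols, ATP5MPL (now ATP5MJ) at 0.01 and ATP5MD (now ATP5MK) at 0.03.

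ATP5MF, the f subunit of the membrane part of the ATP synthase, had the largest difference upward. It lies on the minus strand of chromosome 7 from 99448475 to 99466186 (GRCh38), and had 25.6, 29.1 and 28.8 CPM in WT and 31.3, 43.1 and 31.6 CPM in S6K1-/- libraries. All S6K1-/- libraries were above the WT range, but KO2 stood well above KO1 and KO3. The log2 fold change was 0.35 ± 0.101 (SE; 95% interval 0.13 to 0.56; adjusted p = 0.0338 in edgeR). Without KO2 it was 0.18, with an adjusted p of 0.14 in the same edgeR fit. It also passed 0.05 no longer without WT1 or WT3, where edgeR's adjusted p was 0.106 and 0.0615. In the other fits ATP5MF stayed under 0.05, with an adjusted p of 0.0145 in DESeq2, 0.0165 without KO1 in edgeR and 1.33e-06 in edgeR without a filter on low counts.

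KO2 was high for several other genes too. COX8A, a small complex IV subunit, had 33.5, 35.5 and 30.01 CPM in WT and 35.1, 48.0 and 32.4 CPM in S6K1-/- libraries. COX6A1, the common isoform of its kind, had 9.45, 10.2 and 8.22 CPM in WT and 9.71, 14.2 and 7.95 CPM in S6K1-/- libraries. NDUFA13, which is also known as GRIM-19, had 46, 34 and 27 counts in WT and 16, 43 and 19 counts in S6K1-/- libraries. In these genes the other S6K1-/- libraries lay within or below the WT range. The log2 fold change without KO2 moved from 0.22 to 0.03 for COX8A, from 0.20 to -0.07 for COX6A1 and from -0.40 to -0.93 for NDUFA13, and none of these was called.

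The respiratory chain genes in which KO2 stood furthest above KO1 and KO3 shared a feature of the annotation. In the 8 genes with the largest excess of KO2 over the mean of KO1 and KO3, from 0.24 in ATP5PO to 1.14 in NDUFA13 on the log2 scale, exons of another gene on the same strand covered part of the canonical transcript (GENCODE 44). The covered part ranged from 19.7% in NDUFC2 to 83.9% in NDUFA13. Next in order was NDUFS8, at 0.20, with no such overlap. In the same 8 genes WT2 differed from the mean of WT1 and WT3 by -0.10 in NDUFA13 to 0.33 in NDUFC2, and by more than KO2 in SDHA (0.30 against 0.25). The feature was noticed after the values were seen, and the 7 other tested genes with at least 10% covered had differences of KO2 from -0.16 to 0.14. RPS28, which is not a respiratory chain gene and overlaps NDUFA7 on the opposite strand, was also highest in KO2. It had 85.9, 86.4 and 71.4 CPM in WT and 80.3, 114.7 and 84.9 CPM in S6K1-/- libraries. ATP5MF is overlapped over 37.2% of its transcript by its neighbour PTCD1 and by the readthrough gene ATP5MF-PTCD1, which spans both. ATP5MF-PTCD1 had 6.08, 5.00 and 4.87 CPM in WT and 6.73, 6.60 and 6.25 CPM in S6K1-/- libraries, with no excess in KO2. These groups did not overlap, and the log2 fold change of ATP5MF-PTCD1 was 0.30 (95% interval 0.06 to 0.53, adjusted p = 0.095 in edgeR), beside 0.35 for ATP5MF and 0.01 for PTCD1. The part of the shared exons in these values was not tested.

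**Figure D3:**
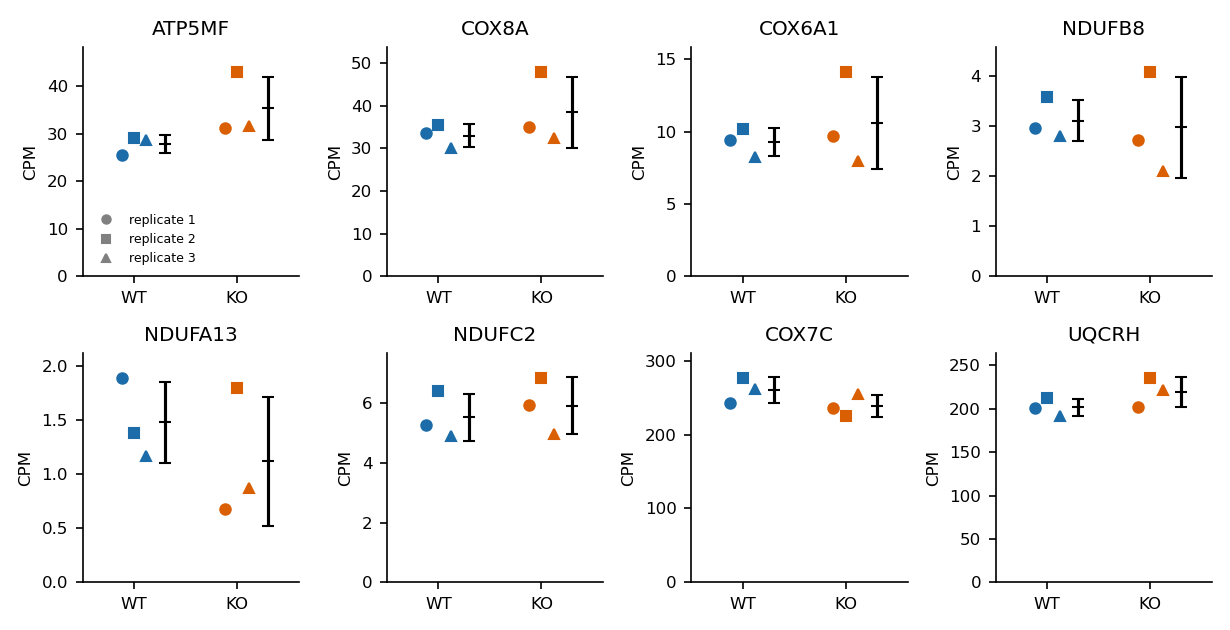
CPM (y axis, from 0) of 8 respiratory chain genes in each WT and S6K1-/- library, with the mean and SD of 3 libraries in black. KO2 (orange square) is the highest S6K1-/- library for ATP5MF, COX8A, COX6A1, NDUFB8, NDUFA13, NDUFC2 and UQCRH, and the lowest for COX7C.

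The same overlap went with low levels. The 60 genes with under 10% of the transcript covered on the same strand and no copy on an alternate contig had levels from 9.50 to 459 RPKM, with a median of 80.7 RPKM. The 7 genes with at least 60% covered (NDUFA7, SDHA, NDUFV2, NDUFA13, NDUFB8, NDUFA11 and ATP5PO) had from 0.681 to 17.1 RPKM, with a median of 2.49 RPKM. Between them, 9 genes with 10% to 60% covered had a median of 14.6 RPKM. For 14 of these 16 genes, GENCODE marks an overlapping gene as a readthrough gene. The count table has rows for ATP5MF-PTCD1, PTCD1 and NDUFC2-KCTD14, so these were counted as genes of their own. The row of NDUFC2-KCTD14 was almost empty, with 1 count in KO1 and 0 in every other library. For the overlapping genes that have no symbol, whether the authors' annotation held them is not given in the sources used here, and the part of the overlap in these levels was not tested.

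SDHA shows how far such a level can stand from that of its partners. The 4 subunits of complex II assemble in equal number, yet SDHA had 1.90 RPKM against 77.7 for SDHC, 54.4 for SDHB and 30.3 for SDHD. Rows named as SDHA pseudogenes held 308% of the counts of SDHA, and those of NDUFV2 and COX6A1 104% and 51.2%. With the pseudogene counts added, the log2 fold change of SDHA went from 0.16 to 0.03, and that of COX6A1 from 0.20 to 0.23. NDUFV2, a core subunit that holds an iron-sulphur cluster, had 2.25 RPKM against 64.7 for its partner NDUFV1. Whether these levels follow the abundance of the transcripts was not tested.

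A further 2 complex I genes had almost no counts without an overlap on the same strand. On the opposite strand, TFPT covers 15.9% of the NDUFA3 transcript. TFPT itself had 0, 2 and 0 counts in WT and 0, 1 and 1 counts in S6K1-/- libraries. NDUFA6 had 0 or 1 count in every library, at which no level can be given, and was not tested. NDUFA3 had 12, 20 and 22 counts in WT and 13, 12 and 11 counts in S6K1-/- libraries, and its log2 fold change of -0.52, the lowest of the 76, had a 95% interval of -1.18 to 0.13. Their transcripts also align, over most of their length or all of it, to alternate contigs of hg38, 3 of them for NDUFA6 and 9 for NDUFA3. Whether the authors aligned to these contigs is not given in the sources used here. NDUFA7, with 7 to 12 counts in each library, was the other gene that was not tested.

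The differences between libraries of 1 genotype were as large as those between genotypes, and many of the genes shared them. WT2 was the highest of the WT libraries for 61 of the 76 genes (80.3%), with a median deviation from the group mean of 0.07 on the log2 scale. KO3 was the highest of the S6K1-/- libraries for 48 genes (63.2%) at 0.05, and KO1 the lowest for 42 (55.3%) at -0.05. Over the 10484 genes with a mean log2 CPM of at least that of 10 CPM, WT2 was the highest WT library for 37.8%, KO3 the highest S6K1-/- library for 36.9% and KO1 the lowest for 28.2%. Short transcripts moved in the same manner. WT2 was the highest WT library for 398 of 537 other genes with at least 10 CPM and a transcript under 1000 nucleotides (74.1%), KO3 the highest S6K1-/- library for 53.4% of them and KO1 the lowest for 45.3%, and the median transcript of the 78 genes had 831 nucleotides. The part of transcript length in this pattern was not tested between libraries. With the length trend removed from the comparison of genotypes, the median log2 fold change of the respiratory chain genes was 0.006.

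**Figure D4:**
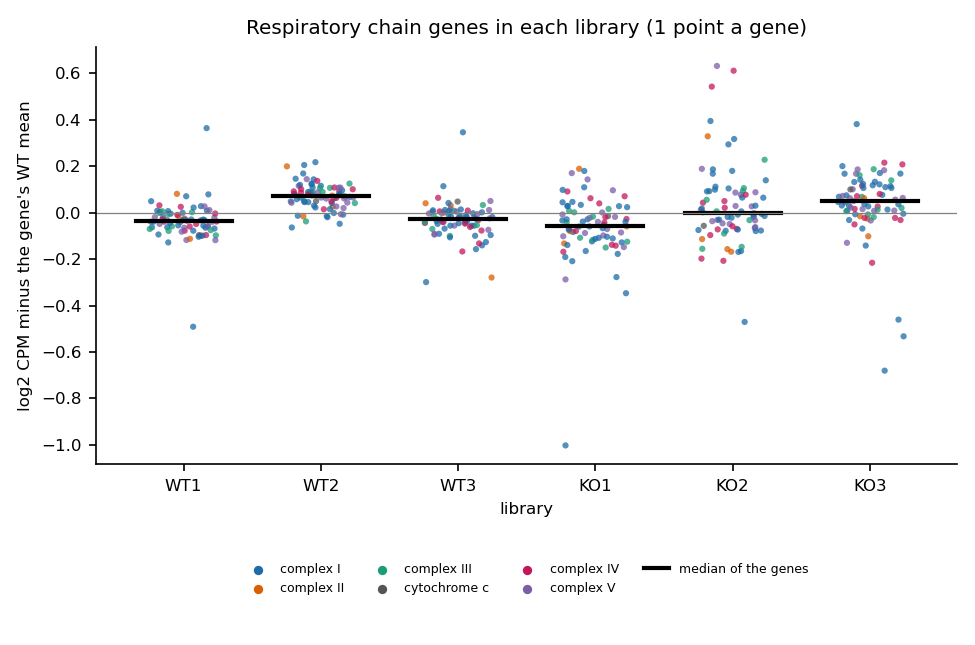
Log2 CPM of the 76 tested respiratory chain genes in each library, relative to the gene's mean over the WT libraries (y axis), with 1 point a gene and the median as a bar. The genes lie higher in WT2 than in WT1 and WT3, and higher in KO3 than in KO1, so the groups cover the same range.

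Leaving out single libraries shifted the whole set by these amounts. The median log2 fold change went from -0.02 without KO3 to 0.03 without WT2, and the number of genes below 0 from 23 of 76 without WT2 to 47 of 76 without KO3. No respiratory chain gene passed the threshold of 0.001 in any of these fits. In the 45 genes free of overlaps on either strand and of alternate contigs, the median was -0.01 and the range -0.13 to 0.12.

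The 13 subunits that mitochondrial DNA encodes form the cores of complexes I, III, IV and V together with the nuclear ones. None of their genes passed 0.001. MT-ND1, a membrane core subunit of complex I, had 3245, 3239 and 3022 CPM in WT and 3895, 4006 and 3188 CPM in S6K1-/- libraries, with a log2 fold change of 0.22 (adjusted p = 0.0477 in edgeR). MT-ND2, of the same complex, was at 0.19 (adjusted p = 0.0454 in edgeR), and KO3 lay within the WT range for both. MT-CYB, the cytochrome b of complex III, and MT-CO3 of complex IV were at 0.16 each, with groups that did not overlap and adjusted p of 0.0598 and 0.0714 in edgeR. At an unadjusted p under 0.05 there were 5 of the 13 (38.5%, against 26.4% of all genes), all higher in S6K1-/- libraries. At an adjusted p under 0.05 there were 2 of the 13, beside 13.8% of all genes. The groups did not overlap in 2 of the 13 (15.4%, against 30.7% of all genes). KO3 was the lowest S6K1-/- library for 12 of the 13 genes. The median over the 13 was 0.07, with 12 above 0, beside -0.0006 for the nuclear-encoded genes. The share of all counts from the mitochondrial genome was 8.63% to 8.78% in WT and 9.51%, 9.74% and 8.54% in KO1, KO2 and KO3.

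The assembly factors, which build the complexes without being part of them, held the only gene called among the other genes of the pathway. ATP23, a protease and chaperone of ATP synthase assembly, had 8, 3 and 5 counts in WT and 35, 23 and 39 counts in S6K1-/- libraries. The groups were far apart for so low a gene, with a log2 fold change of 2.64 ± 0.363 (SE; adjusted p = 1.31e-04 in edgeR, and 0.00129 without WT3 or 0.00137 without KO3). It was the 1 called of 7 tested genes of ATP synthase assembly and regulation (median 0.02), beside 3.96% of all genes tested. None of 21 complex I assembly factors (median -0.02), 10 complex II and III assembly factors (-0.06) and 28 complex IV assembly factors (-0.01) was called. Among the complex I factors, ECSIT (-0.22) and COA1 (-0.13) were lower and NUBPL (0.23) higher at an adjusted p under 0.05 in edgeR, which are 3 of 21 genes beside 13.8% of all genes tested.

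Among the enzymes that feed the chain, none of the 19 genes of the citrate cycle and pyruvate dehydrogenase was called (median -0.0049), nor any of 8 electron carriers and NADH or FAD feeders (0.01). CHDH (-0.19, adjusted p = 0.0893 in edgeR) and SUOX (0.20, adjusted p = 0.0604 in edgeR), both of the latter list, had groups that did not overlap, in opposite directions. SUCLG1, a subunit of succinyl-CoA ligase, had 37.8, 38.7 and 37.0 CPM in WT and 43.1, 41.0 and 42.2 CPM in S6K1-/- libraries. These groups did not overlap, which held for 3 of the 19 genes (15.8%), and the log2 fold change of 0.15 had an adjusted p of 0.0488 in edgeR. Of the 19 genes, 1 was at an adjusted p under 0.05, beside 13.8% of all genes tested.

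Of 21 regulators of respiratory gene expression, none was called either (median 0.01). PPARGC1B, a coactivator of the PGC-1 family, had 31.5, 26.5 and 29.5 CPM in WT and 36.2, 35.4 and 34.4 CPM in S6K1-/- libraries, with a log2 fold change of 0.28 (adjusted p = 0.00867 in edgeR). PPARA, a nuclear receptor that governs fatty acid oxidation, had 11.3, 10.3 and 10.9 CPM in WT and 8.35, 8.56 and 7.40 CPM in S6K1-/- libraries, at -0.41 (adjusted p = 0.00464 in edgeR). In 8 of the 21 regulators the groups were apart in CPM (38.1%, against 30.7% of all genes), PPARGC1B and PPARA among them. At an unadjusted p under 0.05 there were 4 of the 21 (19.0%, against 26.4% of all genes). At an adjusted p under 0.05 there were 2 of the 21, beside 13.8% of all genes. Of the most abundant regulators, YY1 was at -0.08 and TFAM, the main factor of mitochondrial DNA transcription and packaging, at 0.09, both with groups that did not overlap and adjusted p of 0.205 and 0.152 in edgeR. PPRC1 was at 0.03, with groups that overlapped.

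Isoforms of subunits known from heart, muscle, testis or other tissues were low, with at most 7.47 CPM on average, in UQCRHL. Only 4 of them had enough counts to be tested, and none was called (median 0.01). COX6B2, the testis isoform of COX6B1, had 33, 39 and 45 counts in WT and 23, 20 and 16 counts in S6K1-/- libraries, which did not overlap (log2 fold change -0.93, adjusted p = 0.0114 in edgeR). UQCRHL, an intronless relative of UQCRH, had a log2 fold change of 0.03 and NDUFA4L2 of -0.0029, and reads of UQCRHL may be shared with UQCRH.

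Markers of other cells that a stem cell culture could hold were compared in the same fit. In the mesenchyme list, COL1A1 (log2 fold change -1.79), COL1A2 (-0.50) and PDGFRB (-1.34) passed the threshold as lower in S6K1-/- libraries. These were 3 of 5 tested genes, and 3.96% of all genes tested passed it in either direction. PDGFRA was at 0.17 and THY1 at -0.02, and the other 5 of the 10 genes were not tested for want of counts. PAX6 (0.76) passed as higher in the neuroectoderm list, in which 5 of 9 genes were tested. Of the others in that list, SOX1 was at 1.29 (adjusted p = 0.0174 in edgeR), SIX3 at 0.15, ZIC1 at -0.14 and NES at -0.06. OTX1, which had too few counts for the test, had 13, 14 and 7 counts in WT and 2, 1 and 2 counts in S6K1-/- libraries. No gene of the mesendoderm and endoderm list (5 tested, median -0.64) passed, but in all 5 the groups were apart in CPM (30.7% of all genes). FOXA2 was at -0.88 with an adjusted p of 0.00108 in edgeR, EOMES, GATA4 and GSC were also below 0, and MIXL1 was at 0.24 with an adjusted p of 0.0449. None of 3 tested genes of the amnion and trophoblast list (median -0.18) passed, with KRT7 at -0.82 and an adjusted p of 0.00103 in edgeR. In bulk RNA, fewer cells of a type and less RNA per cell cannot be told apart. The part of cell composition in the respiratory chain values was not tested.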

How the data were processed

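Poly(A) RNA of 6 H7 hESC libraries was analysed, and single-cell and ATAC data were not analysed here. The authors trimmed reads (Trim Galore 0.6.5), aligned them to GRCh38 with Bowtie2 2.4.5, which does not align across splice junctions, and deposited whole-number counts per gene from featureCounts. Its version, strand setting and annotation release are not given in the sources used here. A deposited table of the authors' own DESeq2 1.37.4 comparison was not used.

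Genes kept by filterByExpr were compared with edgeR 4.0.16 (R 4.3.3; TMM, quasi-likelihood F test, genotype as the only factor), with Benjamini-Hochberg adjustment over 19521 genes and the study's threshold of 0.001. The steps were tested on simulated data. CPM use TMM-scaled totals. RPKM divide CPM by the length of the GENCODE 44 canonical transcript. Alternate contigs (261) were searched with minimap2 2.31. The members and lists were chosen with earlier results of these data known. Genes were named by rule: RPS6KB1, the 25 members with the smallest adjusted p, the highest and lowest of each complex per length, and the called genes of each list, with up to 3 uncalled regulators and isoforms. NDUFB8, NDUFC2, NDUFV2, SDHD, COX5B, NDUFS8, NDUFA6, NDUFA7, NDUFA11, ATP5PF, ATP5MF-PTCD1, PTCD1, NDUFC2-KCTD14, the older ATP synthase symbols, TFPT, RPS28, MT-CYB, MT-CO3, CHDH, SUOX, the uncalled marker genes and the list genes at an adjusted p under 0.05 were named after their values were seen. A gene that the rule would name is not reported here, but counts and medians include it. The alternatives were other normalizations, filters, thresholds, DESeq2 1.42.0, added pseudogene counts, length and GC trends, a replicate block and each library left out.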

Additional observations from a re-analysis of the deposited data

How the results depend on the processing

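No respiratory chain gene was called as lower in any alternative run. The count of genes called as higher went from 0 to 1, ATP5MF, without a filter on low counts and at an adjusted p under 0.05. Among the pathway lists, 1 gene was called, against 6 without a filter, 0 with at least 10 counts in every library, 10 at an adjusted p under 0.05, 3 under 0.01, and 0 to 2 with single libraries left out. These lists held from 4 to 28 tested genes each. Of all genes tested, 3.96% passed 0.001 and 13.8% passed 0.05. The median log2 fold change of the respiratory chain genes stayed between -0.0217 and 0.031. In 416 recomputed values of the 32 named genes, none passed 0.001 except ATP5MF without a filter, and 11 changed sign, in ATP5F1B, COX6A1, CYCS and NDUFS5. Over all genes, calls went from 496 lower and 278 higher to 982 and 591 without a filter, 939 and 534 at 0.01 and 1622 and 1067 at 0.05. They fell to 313 lower without KO3 and to 175 and 179 higher without KO1 and KO2. The replicate block called 0 respiratory chain genes, with a median of -0.000277, and 423 lower and 241 higher genes overall. Same-numbered libraries had correlations of deviations of 0.0276, -0.0243 and 0.0408, within the range of the other pairs (-0.0802 to 0.053). With 3 libraries a group, these values cannot decide whether the libraries were paired. The alternatives by overlap and alternate contig were chosen after seeing the data, with medians of -0.00731 without and 0.022 with them. Genes with few counts, such as NDUFA3, had intervals too wide to show a difference of the size seen elsewhere.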
